A study of Canis lupus familiaris with 42 samples.

Results

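Glycolysis and lactate export were followed through 10 genes known to be under the control of the hypoxia-inducible factors (HIF), in spontaneous sarcomas of dogs, and 8 of the 10 had higher mRNA levels after the first hyperthermia than before it. The genes were SLC2A1, SLC2A3, HK2, PFKP, ALDOA, TPI1, PGK1, ENO1, LDHA and SLC16A3. Each was represented by the probe set that carries its symbol alone and has the highest mean over all 42 arrays, which gave 10 of the 15115 genes named on the array. All 10 were measured, and no filter on low values was applied. The 10 genes have 25 such probe sets in all, and those not chosen served as a check.

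Glycolysis converts glucose to pyruvate in the cytosol and yields ATP without oxygen. Cells that rely on it reduce much of the pyruvate to lactate, which regenerates NAD+ and is exported with a proton. HIF, a transcription factor that is stabilised when oxygen is scarce and in many tumours for other reasons, is a textbook activator of the glucose transporters, most glycolytic enzymes, LDHA and the lactate exporter SLC16A3, and sarcomas are among the tumours known for high glucose uptake.

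The first group held 21 arrays of tumours labelled hyperthermia, taken after the first heat treatment, which was given beside radiotherapy. The second group held 21 arrays of the same tumours labelled as having had no treatment. The series design speaks of 22 tumours, and 21 were analysed here, numbered 1 to 21. The labels used here give neither the time to the second sample nor whether radiation had already been given, and they name no breed, age, site or sarcoma subtype. Whether all tumours are from separate dogs is not stated either, and p-values here reflect only the spread among these tumours. No tumour was sampled on both occasions without treatment. In bulk tissue, fewer cells of a type and less RNA per cell cannot be told apart.

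Levels are log2 values, and a change is the level after minus the level before in the same tumour. Array medians lay between 5.20 and 5.31. All 10 mesenchymal markers had a mean above the median probe set, which was 5.28. Tumour 15 stood apart. Its 6 keratinocyte markers averaged 10.04 after and 10.94 before, whereas in the other tumours that mean lay between 4.01 and 5.63 after and between 3.98 and 5.58 before. The poly-A controls, RNAs added to a sample in the laboratory, were bright on the arrays of 9 tumours, here called spiked, and dim on those of the other 12, here called unspiked. No label names a batch. RNA length was gauged by a contrast, the mean level of 3′ minus that of 5′ control probes for actin and GAPDH. Its change averaged 0.38 in spiked tumours (8 of 9 higher) and -0.0012 in unspiked ones (7 of 12 higher).

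SLC2A1, PFKP, ALDOA, TPI1, PGK1, ENO1, LDHA and SLC16A3 rose, SLC2A3 and HK2 did not pass the test, and none fell (limma with the tumour as a block, Benjamini-Hochberg adjusted p under 0.05 over 42924 probe sets). Of the 15115 named genes, 4.02% were called higher and 3.13% lower by the same rule, and of all probe sets 2.97% were called higher and 2.99% lower. The median change of the 10 genes was 0.33, beside 0.0069 over all named genes. The 8 rises lay between 0.25 and 0.50, with adjusted p from 0.00304 to 0.0400 (limma). The ranges of levels after and before overlapped for all 10 genes, and the rises were read from the changes within tumours. None of the 8 calls was left when the arrays were treated as unpaired, when the 6 tumours whose contrast changed by more than 0.5 were left out, or in the 12 unspiked tumours alone, where 0 of all probe sets passed and 4989 had an unadjusted p under 0.05. Without those 6 tumours the changes were 0.12 for ALDOA, 0.20 for PGK1, ENO1 and LDHA, 0.22 for PFKP, 0.24 for TPI1, 0.32 for SLC2A1 and 0.39 for SLC16A3, lower than over all 21 tumours for all 8 and by over 1.5 times for ALDOA, SLC2A1, ENO1 and LDHA. With the contrast as a covariate, TPI1, PGK1, LDHA and SLC16A3 were still called. The part of RNA quality in the rises was not tested beyond this.

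**Figure D1:**
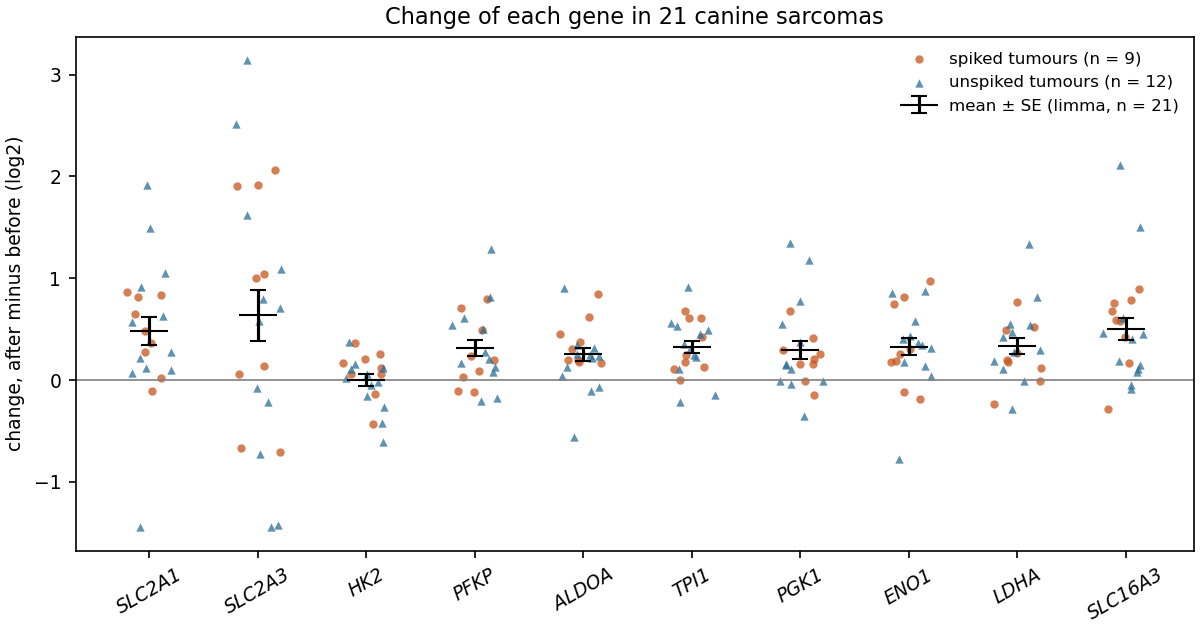
Change of each gene, after minus before on the log2 scale (vertical axis), in each of 21 tumours; circles are the 9 spiked and triangles the 12 unspiked tumours, and bars give the mean ± SE. The means of 8 genes lie between 0.25 and 0.50, SLC2A3 has the widest spread and HK2 sits at 0.

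**Figure D2:**
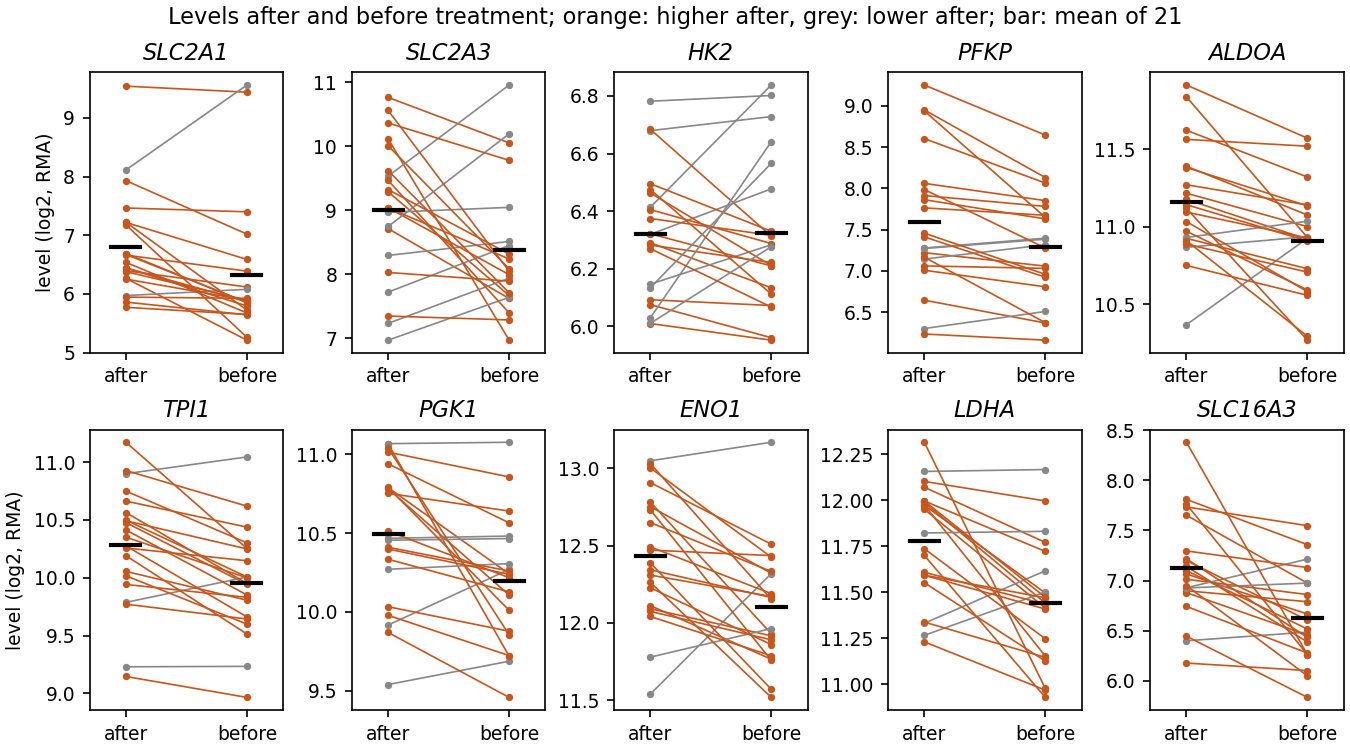
Levels (log2) after and before in each tumour, joined by a line, with 1 panel per gene and its own vertical axis; orange lines mark tumours that were higher after, grey lines those that were lower, and black bars the means of 21. SLC2A1 was higher in 19 tumours and HK2 in 13.

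Both glucose transporters had large average changes, and only that of SLC2A1 passed the test. SLC2A1 encodes GLUT1, the transporter most tissues use for basal glucose uptake. Its level was 5.77 at the lowest, 6.54 at the median and 9.54 at the highest after, against 5.21, 5.89 and 9.56 before. The ranges overlapped, and the upper end of both came from a few tumours. SLC2A1 rose by 0.48 ± 0.13 (SE, n = 21), a 1.40-fold higher level, in 19 of 21 tumours (limma adjusted p = 0.0328). The mean change was 0.47 in spiked and 0.49 in unspiked tumours. Tumour 16 had the largest rise, with 7.18 after and 5.26 before. Tumour 15 had the largest fall, with 8.11 after and 9.56 before. The call was lost when any of tumours 1, 3, 7, 10, 16, 20 or 21 was left out, and over all single omissions the change stayed between 0.41 and 0.58.

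SLC2A3 encodes GLUT3, a high-affinity glucose transporter of neurons, also present in white blood cells and many tumours. Its level was 6.97 at the lowest, 9.04 at the median and 10.76 at the highest after, against 6.97, 8.05 and 10.96 before. The medians lay about a log2 unit apart while the ranges were nearly the same. The mean change was 0.64 ± 0.25 (SE, n = 21), with a 95% interval of 0.11 to 1.16, and did not pass (limma adjusted p = 0.148, exact sign-flip p = 0.0337). SLC2A3 was higher in 14 tumours and lower in 7, and its SD over tumours, 1.27, was the largest among the 10 genes. The mean change was 0.75 in spiked and 0.55 in unspiked tumours. The extremes were tumour 7, with 10.11 after and 6.97 before, and tumour 13, with 8.75 after and 10.19 before. Without tumours 13 and 15, a choice made after seeing the data, the change was 0.85 and passed (limma adjusted p = 0.0235). In that setting 9 of the 10 genes were called, and so were 3861 of all 42924 probe sets, against 2558 with all 21 tumours.

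HK2, the inducible hexokinase that traps glucose as glucose 6-phosphate, had a mean change near 0. Its level was 6.01 at the lowest, 6.32 at the median and 6.78 at the highest after, against 5.95, 6.28 and 6.84 before. Medians and ranges nearly coincided. The mean change was -0.0022 ± 0.057 (SE, n = 21; limma adjusted p = 0.99), with 13 tumours higher and 8 lower. The 95% interval of the fold change ran from 0.921 to 1.08, and on this probe set its upper end lies below the mean folds of the 8 called genes. The second HK2 probe set had a change of 0.10 with a 95% interval of -0.065 to 0.27. The upper end of that interval lies above the mean change of ALDOA, 0.25. The sign of the HK2 change turned under other settings.

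PFKP, the platelet-type phosphofructokinase, catalyses the step that commits the sugar to glycolysis. Its level was 6.23 at the lowest, 7.41 at the median and 9.25 at the highest after, against 6.16, 7.32 and 8.65 before. The upper end moved more than the median. PFKP rose by 0.31 ± 0.080 (SE, n = 21), 1.24-fold, in 17 of 21 tumours (limma adjusted p = 0.0210). Tumour 2 had the largest rise, 1.29, and tumour 5 the largest fall, with a change of -0.21.

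The enzymes of the middle and lower part of the pathway were bright on every array and rose by similar amounts. ALDOA, the main aldolase, cleaves fructose bisphosphate into triose phosphates. Its level was 10.37 at the lowest, 11.12 at the median and 11.91 at the highest after, against 10.27, 10.93 and 11.57 before. The whole range was shifted upward by less than its own width. ALDOA rose by 0.25 ± 0.066 (SE, n = 21), 1.19-fold, in 18 of 21 tumours and in all 9 spiked ones (limma adjusted p = 0.0244). The mean change was 0.37 in spiked tumours and 0.16 in unspiked tumours, a difference that limma did not call (adjusted p = 0.779). ALDOA fell most in tumour 6, with a change of -0.56.

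TPI1 interconverts the triose phosphates so that both can go on. Its level was 9.15 at the lowest, 10.35 at the median and 11.17 at the highest after, against 8.97, 9.95 and 11.04 before. TPI1 rose by 0.32 ± 0.061 (SE, n = 21), 1.25-fold, in 18 of 21 tumours, and had the smallest adjusted p of the 10 genes, 0.00304 (limma). The rise was steady over tumours, since its SD, 0.28, was close to that of HK2, 0.26, the smallest of the 10. The mean change was 0.33 in spiked and 0.32 in unspiked tumours.

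PGK1, phosphoglycerate kinase, makes the first ATP of the pathway. Its level was 9.54 at the lowest, 10.47 at the median and 11.07 at the highest after, against 9.46, 10.24 and 11.08 before. The highest arrays were alike and the middle of the range moved. PGK1 rose by 0.30 ± 0.086 (SE, n = 21), 1.23-fold, in 15 of 21 tumours (limma adjusted p = 0.0400). Its median change, 0.16, lay well below its mean, and tumours 3, 13 and 16 formed a cluster of their own at the top. Tumour 3 had 11.07 after and 9.72 before, and tumour 13 had 11.04 after and 9.86 before. The PGK1 call was the least steady of the 8: it was lost when any 1 of 11 tumours was left out, namely 1, 2, 3, 10, 12, 13, 14, 16, 18, 20 or 21.

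ENO1, the ubiquitous enolase, produces phosphoenolpyruvate. Its level was 11.54 at the lowest, 12.39 at the median and 13.05 at the highest after, against 11.52, 12.15 and 13.17 before. The lowest array of the samples after treatment came from tumour 6, with 11.54 after and 12.32 before, the largest fall of ENO1. ENO1 rose by 0.33 ± 0.085 (SE, n = 21), 1.26-fold, in 18 of 21 tumours (limma adjusted p = 0.0221). Tumour 21 had the largest rise, 0.97.

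At the end of the pathway stand LDHA, the lactate dehydrogenase subunit that favours the reduction of pyruvate to lactate, and SLC16A3, the proton-linked monocarboxylate transporter MCT4, which exports lactate from highly glycolytic cells. LDHA was at 11.23 at the lowest, 11.82 at the median and 12.31 at the highest after, against 10.93, 11.44 and 12.17 before. LDHA rose by 0.33 ± 0.077 (SE, n = 21), 1.26-fold, in 17 of 21 tumours (limma adjusted p = 0.0117). Tumour 13 had the largest rise, with 12.31 after and 10.98 before.

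SLC16A3 was at 6.18 at the lowest, 7.07 at the median and 8.38 at the highest after, against 5.84, 6.52 and 7.55 before. Every point of that summary was higher after, with most of both ranges in common. SLC16A3 rose by 0.50 ± 0.11 (SE, n = 21), 1.42-fold, in 18 of 21 tumours (limma adjusted p = 0.00864), which was the largest called change among the 10 genes. It was nearly equal in the spiked and unspiked tumours, at 0.51 and 0.49. Tumours 13 and 14 formed a cluster of their own, with 8.38 and 7.76 after, against 6.26 and 6.26 before. Without tumour 13, the change was 0.42 and still called.

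Other probe sets of the same genes mostly moved the same way. SLC2A1 has 3 probe sets, with changes of 0.48, 0.60 and 0.38, of which the first and second passed (limma adjusted p = 0.0442 for the second and 0.209 for the third). All 4 probe sets of SLC2A3 had changes above 0, from 0.51 to 0.72, and none passed. For ENO1, the 3 bright probe sets all rose, by 0.33, 0.40 and 0.40, while a dim one did not pass (adjusted p = 0.0934, limma). LDHA rose by 0.37 on its second probe set, whose name marks it as able to bind related transcripts. The second probe sets of TPI1 and PGK1 rose as well, by 0.27 and 0.26, although that of PGK1 was dim, at 3.75 after and 3.49 before. ALDOA's second probe set had a change of 0.21 and did not pass (adjusted p = 0.136, limma), nor did the second of HK2, with 0.10 (adjusted p = 0.552, limma). The third probe sets of TPI1 and PGK1 lay near the bottom of the scale, with changes of 0.030 and -0.00066. PFKP and SLC16A3 have 1 probe set each, so their rises have no such check.

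Most tumours moved on most genes at once. The mean change over the 10 genes was 0.35 ± 0.31 (SD over 21 tumours) and lay above 0 in 18 tumours. All 10 genes were higher after treatment in 6 tumours, numbers 12, 14, 16, 18, 19 and 20, and at least 8 were higher in 14 tumours. In 3 tumours at most 5 genes were higher. These were tumours 6 and 9, with 3 genes higher each, and tumour 15, with 5. Their mean changes were -0.21, -0.09 and -0.20. Tumour 16 had the largest mean change, 0.85, led by SLC2A3 with 2.51. Tumour 13 combined a fall of SLC2A3, with a change of -1.45, with the largest rises of ALDOA, TPI1, LDHA and SLC16A3, and its contrast of the RNA controls changed by -0.84.

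**Figure D3:**
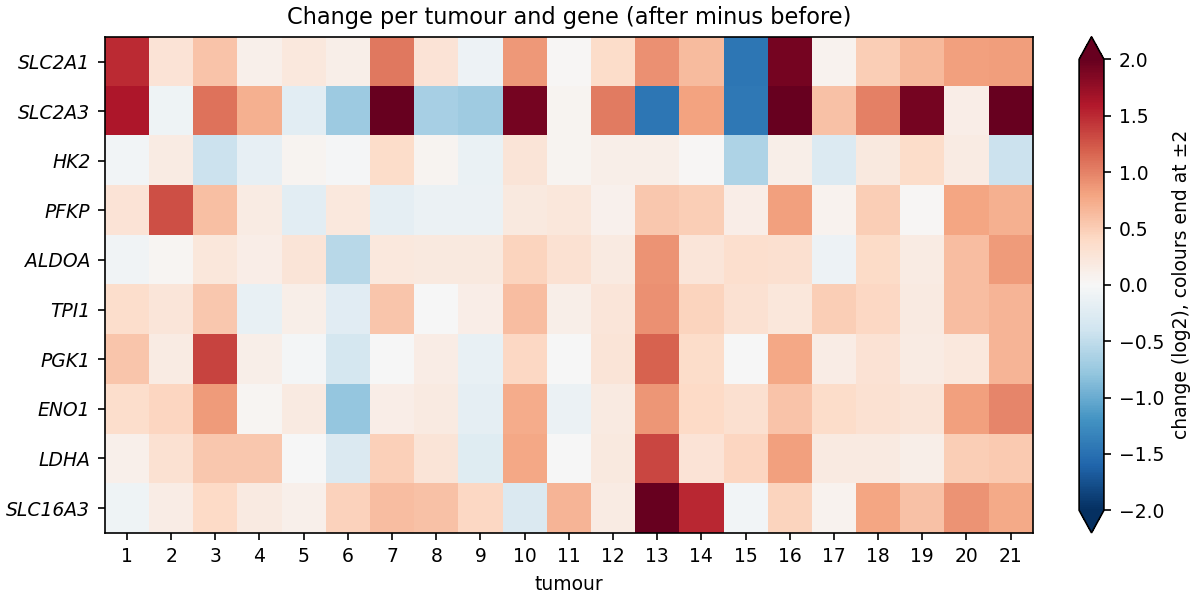
Change (log2, after minus before, colour scale ending at ±2) of the 10 genes (rows) in 21 tumours (columns). Red fills most of the map; the blue cells gather in tumours 6, 9 and 15 and in the rows of SLC2A3 and HK2.

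No difference between spiked and unspiked tumours was called for any of the 10 genes. In a direct test of spiked minus unspiked changes, limma called 0 of the 10, and none had an unadjusted p under 0.05. Of all probe sets, 0.00233% were called in that test. Within the 9 spiked tumours alone, SLC2A1, ALDOA, TPI1 and SLC16A3 were called higher (limma), where 1.19% of all probe sets were called higher and 1.82% lower.

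Of 20 other glycolysis genes, 19 were measured and 5 rose, GPI, PFKFB3, ALDOC, PGAM1 and PKM, and none was called lower. That is a share of 26.3%, beside 4.02% of all named genes, and the median change of the 19 was 0.04. PKM, pyruvate kinase, averaged 8.59 ± 0.48 after and 8.16 ± 0.48 before (SD, n = 21 each) and rose by 0.43 ± 0.091 (SE), 1.35-fold, in 20 of 21 tumours (limma adjusted p = 0.00674). PFKFB3 makes fructose 2,6-bisphosphate, the strongest activator of phosphofructokinase. It averaged 7.19 ± 0.56 after and 6.64 ± 0.64 before and rose by 0.55 ± 0.13, 1.46-fold, in 18 tumours (limma adjusted p = 0.0134). ALDOC, the brain-type aldolase, rose by 0.46 ± 0.12 (adjusted p = 0.0197), and PGAM1, phosphoglycerate mutase, by 0.37 ± 0.083 (adjusted p = 0.0105), both in 17 tumours (limma). GPI, which turns glucose 6-phosphate into fructose 6-phosphate, rose by 0.28 ± 0.076 (limma adjusted p = 0.0289), a call lost when any 1 of 5 tumours was left out. ENO3, the muscle enolase, had the lowest change, -0.30 ± 0.090, with 15 tumours lower, and just missed the test (limma adjusted p = 0.053). It was called lower in 5 of 21 single omissions and in other settings. With these 5, the steps from GPI to LDHA each had at least 1 called gene except that of GAPDH. The probe set with the GAPDH symbol alone was dim, 5.05 ± 0.20 after and 4.96 ± 0.24 before (SD, n = 21 each), and did not pass (limma adjusted p = 0.449). The 6 GAPDH control probe sets, which were outside the tests, averaged 11.73 ± 0.52 after and 11.33 ± 0.48 before, and were higher in 18 of 21 tumours, by 0.40 ± 0.085 (SE; exact sign-flip p = 8.96e-05, a test added after seeing the data). They are among the controls that make up the RNA length contrast.

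**Figure D4:**
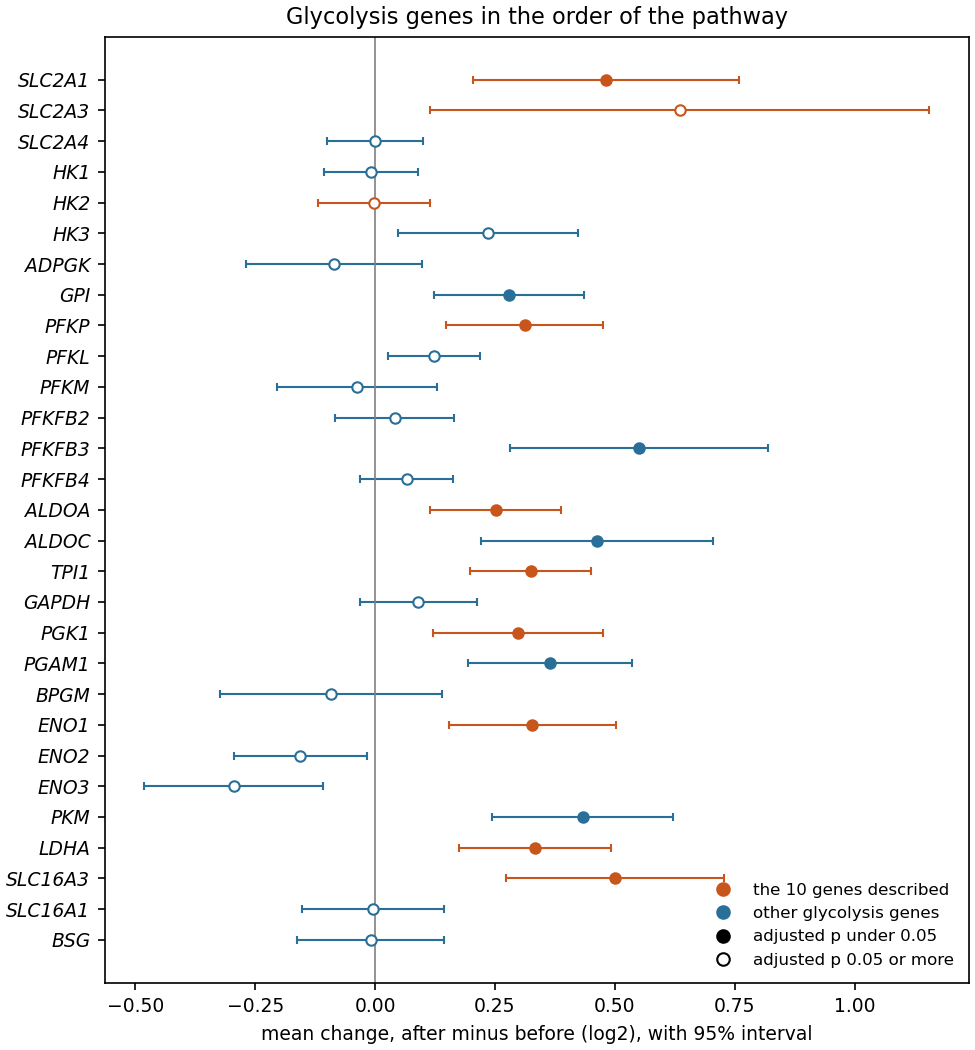
Mean change (log2, after minus before) with its 95% interval for 29 genes from glucose uptake to lactate export, in the order of the pathway; orange marks the 10 genes described and blue the 19 others, and filled circles have an adjusted p under 0.05. The filled circles lie between 0.25 and 0.55, and no gene left of 0 is filled.

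Genes that code for the same step did not all move together. HK1, the housekeeping hexokinase, had a change of -0.0091 ± 0.047, close to that of HK2, and the difference HK2 minus HK1 was 0.0069 ± 0.052 (exact sign-flip test, adjusted p = 0.894). On its next probe set HK1 had a change of 0.385. ENO1 exceeded the neuronal enolase ENO2 by 0.48 ± 0.11, in 17 of 21 tumours (adjusted p = 0.00123). Most of that difference was the rise of ENO1, and ENO2 had a change of -0.16 ± 0.067, with 9 tumours higher and 12 lower, that did not pass on its own. For SLC16A1, which encodes the widely expressed lactate transporter MCT1, the probe set was dim, at 3.74 after and 3.75 before, so its difference from SLC16A3 is mostly the rise of SLC16A3 and is not counted here. PFKP exceeded the muscle-type PFKM by 0.35 ± 0.13 (adjusted p = 0.0297), a call lost when any of tumours 1, 2, 3, 16, 18 or 21 was left out. The other differences did not pass: PFKP minus the liver-type PFKL was 0.19 ± 0.10 (adjusted p = 0.101), ALDOA minus ALDOC was -0.21 ± 0.097 (adjusted p = 0.0735) and SLC2A3 minus SLC2A1 was 0.15 ± 0.21 (adjusted p = 0.557). All 7 were tested by exact sign flips over the 21 tumours, with SE given and p adjusted over the 7. Leaving the pair with SLC16A1 aside, none passed in spiked or in unspiked tumours alone.

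Next to glycolysis stand the pathways that use pyruvate and that branch off glucose 6-phosphate. Of 14 genes for pyruvate use (pyruvate dehydrogenase, its kinases and phosphatases, and the mitochondrial pyruvate carrier), none was called by limma. Of all named genes 4.02% were called higher and 3.13% lower, and at such shares a list this short can hold none. The smallest p-values belonged to MPC2, a subunit of the carrier, with a change of 0.22 ± 0.074 (adjusted p = 0.072), and PDK3, a kinase that inactivates pyruvate dehydrogenase, with 0.14 ± 0.058 (adjusted p = 0.163). Of 15 measured genes of the pentose phosphate pathway and glycogen, 3 rose, a share of 20% beside the 4.02% of all named genes, and none fell. TIGAR, a p53 target that lowers fructose 2,6-bisphosphate, averaged 8.89 ± 0.86 after and 7.71 ± 0.71 before (SD, n = 21 each) and rose by 1.18 ± 0.14 (SE), 2.26-fold, in 21 of 21 tumours (limma adjusted p = 5.73e-05). RPE and PGD, both enzymes of the pentose phosphate pathway, rose by 0.24 ± 0.059 (adjusted p = 0.0150) and 0.17 ± 0.044 (adjusted p = 0.0242).

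None of the 8 genes of the HIF system itself was called (limma). With 4.02% of all named genes called higher and 3.13% lower, a list this short can hold none. HIF1A, the oxygen-regulated subunit, averaged 9.62 ± 1.0 after and 9.50 ± 1.18 before (SD, n = 21 each), and its change was 0.12 ± 0.12 (adjusted p = 0.666). HIF is regulated mainly through the stability of its protein, which arrays do not measure. The smallest p-values of this list were those of EGLN3, a prolyl hydroxylase that marks HIF for degradation, with a change of 0.25 ± 0.11 (adjusted p = 0.166), and VHL, which recognises that mark, with -0.19 ± 0.080 (adjusted p = 0.189). Of 21 HIF targets outside glycolysis, 4 rose (ANKRD37, PLIN2, ERO1A and AK4) and 1 fell (INSIG2), all named after their values were seen. Their changes were 0.72, 0.63, 0.95, 0.35 and -0.27, and the median change of the 21 was 0.18.

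Over tumours, the changes of the lower enzymes went together. For the 45 pairs among the 10 genes, 9 passed by Pearson's r (permutation p adjusted over the 45), and 8 of these 9 were among the 10 pairs of ALDOA, TPI1, PGK1, ENO1 and LDHA, where r ran from 0.551 to 0.82. The lowest r and the other pair that did not pass were both over the 18 tumours outside the upper PGK1 cluster. Within these 18 they rested on 2 tumours: without tumours 6 and 21, r was -0.0717 for ALDOA and PGK1 and 0.344 for PGK1 and LDHA. Over all 21 tumours, PGK1 and LDHA had r = 0.719 (adjusted permutation p = 0.00234), and 0.662 without tumours 3 and 13. ALDOA and PGK1 had r = 0.526 over all 21 (adjusted permutation p = 0.0614), and 0.19 without tumours 6 and 13. The pairs share arrays and normalization. For TPI1 and ENO1, r was 0.82 and rho 0.791 (adjusted permutation p = 0.00045 and 9e-04), with 0.904 in spiked and 0.777 in unspiked tumours, and r was 0.741 without tumours 6 and 13. For PGK1 and ENO1, over the 18 tumours outside the upper PGK1 cluster, r was 0.815 and rho 0.779 (adjusted permutation p = 0.00157 and 0.00427), with 0.86 in spiked and 0.751 in unspiked tumours, and 0.613 without tumours 6 and 21. Between ALDOA and LDHA r was 0.684 and rho 0.522 (adjusted permutation p = 0.00714 and 0.0514), with 0.651 in spiked and 0.867 in unspiked tumours. Without tumours 6 and 13 that r was 0.396, and r was 0.45 for ALDOA and TPI1 and 0.39 for TPI1 and LDHA, so these 3 relations rested in good part on them. The ninth pair was that of the transporters. SLC2A1 and SLC2A3 had an r of 0.673 and a rho of 0.662 (adjusted permutation p = 0.00435 and 0.0126), with 0.746 in spiked and 0.683 in unspiked tumours, and r was 0.543 without tumours 15 and 16. HK2 passed with none of its 9 partners, with r from -0.111 to 0.504. SLC16A3 passed with none either, over the 19 tumours outside its upper cluster. By Spearman's rho 14 pairs passed (adjusted permutation p under 0.05), and not only among the lower enzymes or the transporters. SLC2A1 passed with TPI1, PGK1 and ENO1, with rho of 0.573, 0.688 and 0.579. PFKP passed with PGK1 and ENO1, with 0.583 and 0.692, and SLC2A3 with PGK1, with 0.657. None of these pairs of SLC2A1, PFKP and SLC2A3 with an enzyme passed by r.

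Of the 10 genes, 1 passed the test with markers of other cell types. In 120 relations between the gene changes and the mean changes of marker lists or the RNA control contrast, only SLC2A3 with the 7 measured neutrophil markers passed, with r = 0.771 and rho = 0.729 (adjusted permutation p = 0.0084 and 0.0456). The r was 0.582 in spiked and 0.876 in unspiked tumours, and 0.702 without tumours 6 and 13. The mean level of these markers lay between 4.61 and 7.73 after and between 4.72 and 8.18 before, and it changed by 0.46 ± 0.60 (SD) with 16 of 21 tumours higher. S100A9, TREM1 and LCN2 rose among them (limma), the S100A9 call being lost in 15 of 21 single omissions and that of LCN2 in 6. S100A8 had a change of 0.67, with 17 of 21 tumours higher, and did not pass (limma adjusted p = 0.0812). CSF3R, MPO and ELANE had changes of 0.086, -0.013 and -0.058 and did not pass. Of the 7 markers, 4 had a mean below the median probe set. The part of neutrophils in the change of SLC2A3 was not tested. Between SLC2A1 and the same markers r was 0.5 and rho 0.452, which did not pass (adjusted permutation p = 0.552 and 0.713). PGK1 had r = 0.592 with them over 18 tumours (adjusted permutation p = 0.391). In spiked tumours their r was 0.739 with TPI1, 0.732 with PGK1, 0.691 with ENO1 and 0.685 with PFKP. It was 0.649 with SLC2A1, 0.616 with LDHA and 0.598 with ALDOA. In unspiked tumours these values were 0.122, 0.459, 0.262, 0.176, 0.499, -0.0232 and -0.114. With HK2 and SLC16A3 r was -0.115 and -0.0712 in spiked and 0.321 and 0.401 in unspiked tumours. Other lists moved as well (limma): 6 of 8 proliferation genes, 4 of 8 T cell markers and SPARC of the mesenchymal markers fell. Of all named genes, 3.13% were called lower. Among 10 macrophage markers MARCO rose by 1.86 ± 0.30 (SE), 3.63-fold, in 19 of 21 tumours (limma adjusted p = 0.00117), more than any of the 10 genes, while MSR1 rose and CSF1R fell. None of these lists passed with any of the 10 genes, nor did the B cell markers with HK2 (r = 0.677 over 19 tumours, adjusted permutation p = 0.087). Lists with clusters also used only the larger cluster. The macrophage relations therefore used 14 tumours (12 for PGK1 and SLC16A3) and speak for those only. The T cell relations used 19 (16 for PGK1 and 17 for SLC16A3). The part of these lists in the rises was not tested. With the RNA control contrast, r in spiked tumours was 0.776 for PFKP, 0.7 for ALDOA and 0.692 for TPI1. In unspiked tumours it was 0.228, -0.406 and -0.422. Over all 21 tumours it was 0.317, 0.133 and 0.0117, and 0.531, 0.566 and 0.491 without tumours 11 and 13. The other genes had r from -0.248 (HK2) to 0.455 (ENO1) with the contrast in spiked tumours. The part of the contrast was not tested beyond this.

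**Figure D5:**
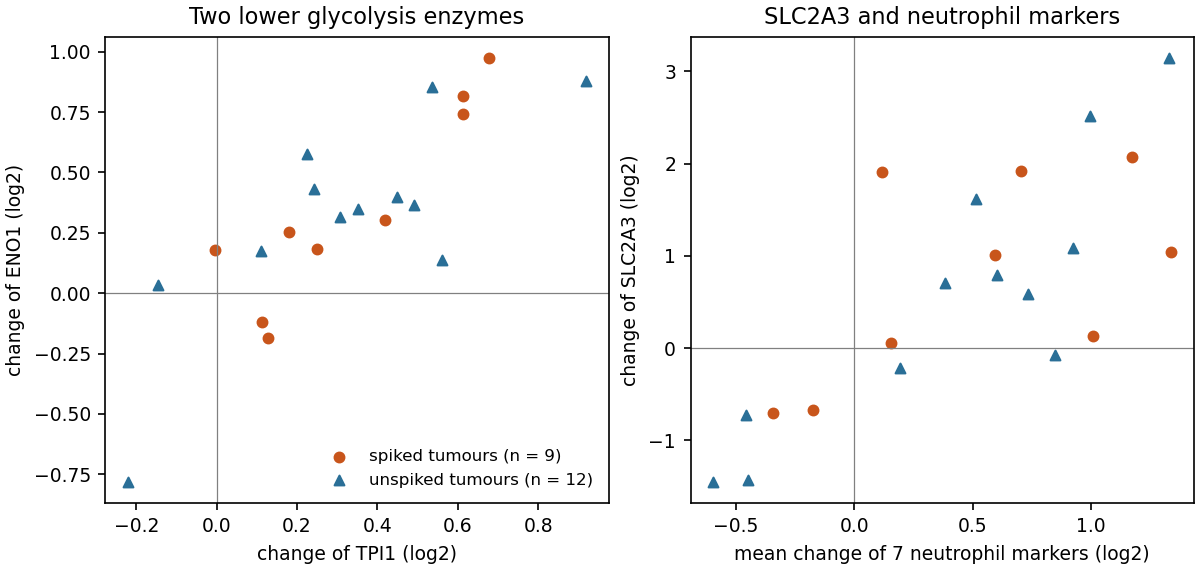
Change of ENO1 against that of TPI1 (left) and change of SLC2A3 against the mean change of 7 neutrophil markers (right), all on the log2 scale as after minus before, with 1 point per tumour; circles are spiked and triangles unspiked tumours. Points climb from lower left to upper right in both panels, with r = 0.82 on the left and r = 0.771 on the right.

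Among 9168 other genes with a probe set at or above the median level, those whose change over the 21 tumours was most like the mean change of the 10 genes were CBX5 with r = 0.827, TXN with 0.805, LOC480043 with 0.792, GTF2B with 0.777, TOX4 with 0.772 and ANXA8L1 with 0.771. These are descriptions of the closest among many and carry no p. The mean was taken over unscaled changes, so SLC2A3, which was not called, weighed most in it. Its SD over tumours was 1.27, against 0.26 to 0.67 for the other members. TXN, thioredoxin, rose by 0.47 ± 0.11 (SE, n = 21; limma adjusted p = 0.0123), CBX5 by 0.27 ± 0.074 (adjusted p = 0.0316) and ANXA8L1 by 0.85 ± 0.20 (adjusted p = 0.0136). GTF2B and TOX4 had changes of 0.041 ± 0.056 and 0.066 ± 0.041 and LOC480043 one of 0.39 ± 0.15, none of which passed.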

How the data were processed

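RNA from dog sarcomas was measured on Affymetrix canine arrays, 21 after and 21 before hyperthermia. The deposited values are on the log2 scale and were made by the authors with RMA in Affymetrix Expression Console, per the submitters' processing notes, whose version is not given in the sources used here. The values run from 2.13 to 14.6. Of 43035 rows, 111 were control probe sets and not tested, and 42924 stayed, 64 reporter probe sets among them. One symbol was annotated for 29254, several for 439 and none here for 13231. Matching gene identifiers to a current table (27680 of 29254) changed no symbol. For HK2 the identifier found no match, so the annotated symbol was kept. Related transcripts can bind probe sets ending in _s_at or _x_at, as for PFKP, PGK1 and ENO1. No coordinates or sequences are given.

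Arrays were paired through the code that opens each title, since the series design has each tumour on both occasions. After removal of the group means, every array correlated best with its partner (21 of 21, lowest correlation 0.438).

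For the changes, limma 3.58.1 was run in R 4.3.3, two-sided, tumour as a block, eBayes, Benjamini-Hochberg at 0.05 over all 42924 probe sets. One probe set stood for a gene. Pairs of genes were tested by exact sign flips. Relations used 100000 permutations, two-sided. Each r was taken again with 2 tumours left out together. These were farthest from the median change of the marker list, the contrast or the first gene of the pair. Clusters were sought with mclust 6.1.1, and pairs of clustered genes used the larger cluster. A spiked array had poly-A controls above 4.5. The fit was checked on simulated data. Other steps ran in Python 3.11.15 with pandas 2.3.3, NumPy 2.4.6, Matplotlib 3.10.9 and SciPy 1.17.1. Precision is limited by the number of arrays. The members, lists and tests were chosen with earlier results of these data known. The genes named are the 10 genes, the genes paired with them by step, called genes of the neighbouring lists or the 2 with the smallest p where fewer were called, and the 6 closest in change. LDHB was not analysed here. Alternatives changed the pairing, filter, shrinkage, weights, normalization, centring, RNA quality, batch, probe set, test and tumours.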

Additional observations from a re-analysis of the deposited data

How the results depend on the processing

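The direction of the 8 called genes and of SLC2A3 was the same in every alternative run. Without the replicate block, which ignores the pairing, 30 probe sets passed, 0 of the 10 genes, 0 other glycolysis genes, 1 pentose phosphate or glycogen gene and 0 HIF targets outside glycolysis, against 2558, 8, 5, 3 and 5 with it. With the RNA length contrast added as a covariate the first 3 counts were 1094, 4 and 3, and 3 HIF targets passed; without the 6 tumours of changed contrast they were 340, 0 and 0, with 1 pentose phosphate or glycogen gene and 0 HIF targets. In spiked tumours they were 1293 probe sets, 4 of the 10 genes, 1 pentose phosphate or glycogen gene, 1 HIF target and 0 pairs of genes, and in unspiked tumours 0 for every list and 1 pair, that with the dim SLC16A1. The next probe set gave 5 of the 8 genes that have one, 2 of 12 pyruvate genes, 2 HIF targets and, among 11 other glycolysis genes, 3 higher and 2 lower. The mean of all probe sets gave 9 other glycolysis genes, 7 higher and 2 lower, and 1 pyruvate gene. Among other glycolysis genes 1 was lower also with array weights, over probe sets at or above the median and without tumours 13 and 15. Without tumours 13 and 15, chosen after seeing the data, 3861 probe sets, 2 pyruvate genes and 8 HIF targets passed. With a random block 6 of the 10 genes passed (SLC2A1 and PFKP did not), 4 other glycolysis genes and 3 HIF targets. Over probe sets at or above the median 8 HIF targets passed. There 2593 of 21462 probe sets were called, against 2558 of 42924 in the main fit, and 3 of the 21 targets lie below the median. By Spearman's rho 14 relations passed, against 9 by r. Leaving out each tumour in turn gave 1816 to 3171 probe sets, 6 to 8 of the 10 genes, 4 to 6 other glycolysis genes, 0 to 1 pyruvate genes, 3 to 3 pentose phosphate or glycogen genes, 0 to 0 HIF system genes, 5 to 8 HIF targets and 2 to 4 pairs. That number of pairs includes the pair with the dim SLC16A1, which passed in all 21 omissions. The changes near 0 turned sign. HK2 had 0.031 with array weights, 0.072 in spiked tumours, 0.024 without tumours 13 and 15, 0.050 as the mean of its probe sets and 0.10 on the next one, and -0.021 to 0.028 over single omissions. HK1 had 0.031, 0.0071, 0.015, 0.15 and 0.385 in the same settings, 0.0091 without the tumours of changed contrast, and -0.028 to 0.014. PFKM had 0.0080 in spiked tumours and -0.090 to 0.0076. The change of SLC16A1 was 0.00089 with array weights, 0.037 with the covariate, 0.030 in unspiked tumours and -0.027 to 0.036. HK2 minus HK1 was -0.037 in unspiked tumours, -0.098 as the mean of probe sets and -0.012 to 0.028. The cause was not tested.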
